A study of Mus musculus with 9 samples.

Results

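A set of 10 genes that mark neurons of the midbrain and brainstem was followed across 3 mouse genotypes. The genes were Gata2, Gata3, Tal1, Pax5, Pax7, Tfap2b, Barhl1, Shox2, Mab21l1 and Mab21l2, taken by symbol, and all 10 of 10 were found among the 33641 genes of the table. The genes were selected on their CPM in PG9VN against WT: Gata3, Pax7, Pax5, Tfap2b, Barhl1, Mab21l2 and Shox2 stood among the largest falls of PG9VN brain relative to WT brain in earlier work on the same libraries, and how Gata2, Tal1 and Mab21l1 joined them is not stated. Levels in PG9VN against WT are therefore given as a description, without a p-value. PG9VN and PG9V are mutant mouse lines, and WT mice were the controls. There were 3 biological replicates, 1 library each, of every genotype, all untreated and all 7.5 months old, and the dissected tissue held thalamus, hypothalamus and midbrain. The labels do not spell out the alleles. As known of these lines from outside the labels, both mutants lack progranulin, a secreted and lysosomal protein. Every difference between WT and a mutant line thus includes the loss of progranulin, and the labels give no strain, sex or litter.

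As background, transcription factors of this kind fix the identity of midbrain neurons in the embryo, and many stay on in the adult cells. Gata2, Gata3 and Tal1 select the inhibitory, GABA-releasing identity. Pax7 and Barhl1 belong to the dorsal midbrain, which holds the superior and inferior colliculi, and Pax5 acts at the border of midbrain and hindbrain. The Mab21 proteins are not classical transcription factors but belong to a family with a nucleotidyltransferase fold needed for eye and midbrain development. In bulk tissue, fewer cells of a type and less RNA per cell cannot be told apart.

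The libraries held 27150311 to 35349014 estimated counts. CPM below are counts per 1000000 at TMM library sizes, and a floor of 3 counts per library equals 0.0849 to 0.1105 CPM, which covers counting error only. Grn, which encodes progranulin, was at 3.58 to 4.71 CPM in PG9VN, 2.59 to 4.73 CPM in PG9V and 46.5 to 55.5 CPM in WT. Some libraries stood apart from the rest of their genotype. PG9VN replicate 2 had far lower hypothalamic markers than the other PG9VN libraries. The mean of the dopamine neuron genes was low in PG9VN replicates 2 and 3 but less so in replicate 1. WT replicate 2 had lower choroid plexus markers, with Ttr at 70.7 CPM against 1567 and 458 CPM in WT replicates 1 and 3, and higher striatum markers. PG9V replicate 3 had high cerebellum markers, and PG9V replicate 2 and WT replicate 1 had 0.265 and 0.45 CPM of the Y-linked Ddx3y against 43.3 to 68.8 CPM in the other 7 libraries. All PG9VN libraries were among these 7, while PG9V and WT each held a library low in Ddx3y. Sex may thus differ in balance between the genotypes, and its part was not tested.

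Stretches before the transcription start are shown because the 10 genes were low in the same libraries and 3 of them encode proteins that bind DNA as GATA and E-box factors. RefSeq sequences on build GRCm38.p6 were matched by symbol for 9 of 10 members, with 12 starts in all. The 250 bases before each start were searched on both strands for the 4 GATA hexamers AGATAA as well as AGATAG, and TGATAA as well as TGATAG, and separately for the E-box CANNTG, so that matches sharing letters were each counted. A GATA hexamer was present before 3 of 12 starts, against 26.5% of all 32851 promoters in the same window. The E-box CANNTG was present before 4 of 12, against 66.2% of all. The 3 stretches with a GATA hexamer are printed 5′ to 3′ on the strand of the gene, with the hexamer (either strand) in capitals.
Tal1 (first of 2 starts, chr4:115056176-115056425, plus strand): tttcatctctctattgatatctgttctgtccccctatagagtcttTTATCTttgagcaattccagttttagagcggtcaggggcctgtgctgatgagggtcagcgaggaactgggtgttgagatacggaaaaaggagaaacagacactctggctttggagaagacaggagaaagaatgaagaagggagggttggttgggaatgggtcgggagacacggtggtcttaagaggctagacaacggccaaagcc
Barhl1 (first of 2 starts, chr2:28916669-28916918, minus strand): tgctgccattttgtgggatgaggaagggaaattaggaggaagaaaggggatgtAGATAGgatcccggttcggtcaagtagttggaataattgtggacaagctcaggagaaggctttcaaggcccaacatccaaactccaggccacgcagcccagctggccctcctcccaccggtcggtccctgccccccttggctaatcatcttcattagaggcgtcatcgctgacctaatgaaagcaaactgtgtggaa
Shox2 (chr3:66981772-66982021, minus strand): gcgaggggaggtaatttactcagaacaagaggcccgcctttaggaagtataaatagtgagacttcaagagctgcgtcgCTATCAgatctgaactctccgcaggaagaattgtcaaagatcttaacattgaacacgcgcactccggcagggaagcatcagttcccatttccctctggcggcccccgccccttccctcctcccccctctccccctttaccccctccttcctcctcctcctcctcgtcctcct
The hexamers begin 205, 197 and 172 bases before the start, in that order. Such a match is a description of the letters and not a binding site. The GC content of the 12 windows ran from 46.4% to 74.0%, against a median of 52.4% over all promoters.

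All 10 genes were lower in every PG9VN library than in any WT library and than in any PG9V library, while PG9V and WT overlapped for 8 of the 10. Relative to the WT mean, the mean CPM in PG9VN was 74.1% for Gata2, 32.2% for Tal1, and between 3.98% (Pax7) and 23.5% (Mab21l1) for the other 8. The edgeR quasi-likelihood fit called 10 of 10 lower in PG9VN than in WT, where 7.22% of the 17398 genes tested were called lower, and since this contrast chose the genes nothing is read from that count. Libraries did not overlap for 10 of 10, against 17.2% of all genes with PG9VN below WT. The direction was the same under each scaling tried for 9 of the 10, and the exception was Gata2, whose log2 fold change against WT was 0.14 when scaled to markers of neurons in general. Calls against WT depended on single libraries, with 6 of 10 called when WT replicate 1 was left out and 5 when WT replicate 3 was. The count was 3 when WT replicate 1 and PG9V replicate 2, the 2 libraries low in Ddx3y, were both left out.

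**Figure D1:**
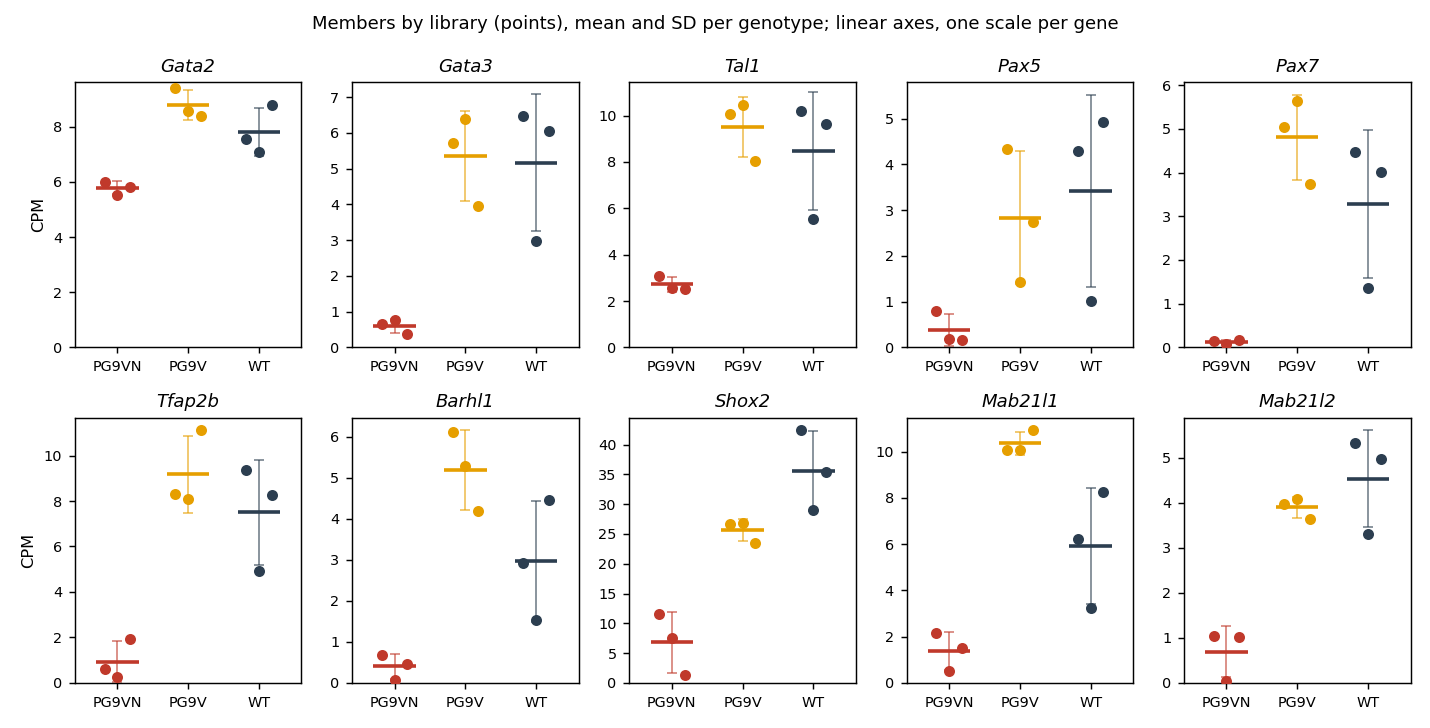
Level of each member in CPM (linear axis, starting at 0, one scale per gene) for PG9VN, PG9V and WT, with 1 point per library, a bar at the mean and whiskers of 1 SD (n = 3). All PG9VN points sit below all PG9V and WT points for each of the 10 genes, and the relative difference is smallest for Gata2.

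Gata3, a zinc finger factor of GABA neurons, was at 0.647, 0.775 and 0.383 CPM in PG9VN replicates 1 to 3, at 5.72, 6.40 and 3.96 CPM in PG9V and at 6.48, 2.98 and 6.05 CPM in WT. The highest PG9VN library was thus below the lowest library of both other genotypes, and WT replicate 2 stood well under the other WT libraries. The fitted log2 fold change was -3.10 ± 0.38 (SE) in PG9VN against WT and -3.15 ± 0.38 in PG9VN against PG9V. The annotated gene 4930412O13Rik, which overlaps Gata3 on the opposite strand, had 0, 0 and 0 counts in PG9VN, 9, 9 and 11.7 in PG9V and 10.4, 5 and 11.3 in WT.

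Tal1, a basic helix-loop-helix factor that pairs with GATA proteins, was at 3.09, 2.54 and 2.54 CPM in PG9VN, at 10.1, 10.4 and 8.04 CPM in PG9V and at 10.2, 5.55 and 9.62 CPM in WT. Its PG9VN libraries lay close together and below all of the other 6, and the log2 fold change was -1.63 ± 0.24 against WT and -1.80 ± 0.24 against PG9V. Gata2 was at 6.004, 5.53 and 5.81 CPM in PG9VN, at 9.41, 8.55 and 8.396 CPM in PG9V and at 7.55, 7.08 and 8.79 CPM in WT. Gata2, the GATA factor that acts early in GABA neuron choice, differed least of the 10, by -0.43 ± 0.13 on the log2 scale against WT and -0.60 ± 0.13 against PG9V. Gata2 and Tal1 are also made by endothelial cells and Gata2 by mast cells. Of 9 endothelial markers 1 was called higher (Cldn5, a tight junction protein) and 1 lower (Tek, a receptor kinase) in PG9VN against WT. The shares of all genes were 11.5% and 7.22%. Endothelial markers had summed levels of 402 to 449 CPM in PG9VN, 408 to 479 CPM in PG9V and 361 to 379 CPM in WT. Of 8 mast cell markers 2 were high enough to test and 0 were called in this comparison by edgeR, with 0 at an unadjusted p under 0.05, and Fcer1a was at 0 in every library. The part of these cells in the Gata2 and Tal1 values was not tested.

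The paired-box genes varied widely within WT. Pax7 was at 0.144, 0.0738 and 0.174 CPM in PG9VN, which is 4, 2 and 5 counts, at 5.04, 5.64 and 3.73 CPM in PG9V and at 4.47, 1.35 and 4.02 CPM in WT. It was thus near the counting floor in each PG9VN library and well above it in the other 6. Its log2 fold change was -4.60 ± 0.55 against WT and -5.15 ± 0.55 against PG9V, the largest of the 10. Pax5 was at 0.791, 0.184 and 0.174 CPM in PG9VN, at 4.33, 1.43 and 2.75 CPM in PG9V and at 4.29, 1.02 and 4.94 CPM in WT. The gap between genotypes was narrow for Pax5, since the highest PG9VN library (0.791 CPM) was close to WT replicate 2 (1.02 CPM), and its log2 fold changes were -3.15 ± 0.78 against WT and -2.87 ± 0.78 against PG9V. Pax5 also marks B cells. Of 6 B cell markers 5 were tested and 2 were called higher in PG9VN than in WT, against 11.5% of all genes. The 2 were Blnk and Cd79b (0 with the top transcript of each gene alone). The summed level was 23.2 to 44.6 CPM in PG9VN, 18.5 to 63.8 CPM in PG9V and 14.6 to 24.0 CPM in WT. Most of that sum was Ighm and Blnk, and Ms4a1 was at 0.503, 0.184 and 0.209 CPM in PG9VN, at 0.106, 0.365 and 0.511 CPM in PG9V and at 0.312, 0.440 and 0.279 CPM in WT. The part of B cells in the Pax5 values was not tested.

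Tfap2b, an AP-2 family factor, and Barhl1, a BarH-like homeobox factor, were both low in PG9VN but with an unlike order of libraries. Tfap2b was at 0.611, 0.258 and 1.95 CPM in PG9VN, at 8.31, 8.09 and 11.1 CPM in PG9V and at 9.35, 4.91 and 8.26 CPM in WT. Barhl1 was at 0.683, 0.0738 and 0.452 CPM in PG9VN, at 6.11, 5.27 and 4.18 CPM in PG9V and at 2.91, 1.52 and 4.46 CPM in WT. The log2 fold changes were -2.98 ± 0.56 and -2.87 ± 0.58 against WT for Tfap2b and Barhl1, and -3.27 ± 0.56 and -3.66 ± 0.58 against PG9V. Both genes are also expressed in cerebellum. Cerebellum markers were highest in PG9V replicate 3, where their mean stood 3.29 log2 units above the WT mean, and there Tfap2b was the highest and Barhl1 the lowest of the PG9V libraries. Barhl1 counts were spread over 5 transcripts, the largest with 47.1% of them.

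Shox2, a homeobox factor found in thalamus as well as midbrain, was the most abundant member. It was at 11.5, 7.49 and 1.32 CPM in PG9VN, at 26.7, 26.9 and 23.6 CPM in PG9V and at 42.5, 29.0 and 35.4 CPM in WT. It was the 1 member of 10 for which every PG9V library also lay below every WT library, which held for 13.2% of all genes. The PG9VN libraries differed 8.73-fold from highest to lowest, and the log2 fold change was -2.39 ± 0.56 against WT and -1.92 ± 0.55 against PG9V. Rsrc1, which overlaps Shox2 on the opposite strand and encodes a splicing-related protein, was at 44.1, 43.7 and 39.0 CPM in PG9VN, at 59.5, 59.9 and 54.8 CPM in PG9V and at 68.6, 55.2 and 67.1 CPM in WT. Rsrc1 was itself called lower in PG9VN, by -0.59 ± 0.10 on the log2 scale against WT and -0.46 ± 0.10 against PG9V (edgeR adjusted p = 0.00386 and 0.0398), a smaller difference than that of Shox2. The library kit keeps the strand, but no source used here says whether the counting used it, so reads of the overlap cannot be told apart.

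The Mab21 pair was low in PG9VN. In PG9V, Mab21l1 lay above every WT library, as did 16.5% of all genes, while Mab21l2 lay inside the WT range. Mab21l1 was at 2.16, 0.516 and 1.496 CPM in PG9VN, at 10.1, 10.1 and 10.9 CPM in PG9V and at 6.23, 3.25 and 8.26 CPM in WT. Mab21l2 was at 1.04, 0.0369 and 1.01 CPM in PG9VN, at 3.98, 4.08 and 3.64 CPM in PG9V and at 5.33, 3.32 and 4.96 CPM in WT. Both were lowest in PG9VN replicate 2, where Mab21l2 had 1 count. The log2 fold changes were -2.09 ± 0.46 for Mab21l1 and -2.69 ± 0.61 for Mab21l2 against WT, and -2.89 ± 0.47 and -2.47 ± 0.61 against PG9V. With the counts of both genes added together, since similar sequences can share reads, the values were -2.32 ± 0.50 against WT and -2.77 ± 0.50 against PG9V.

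Each Mab21 gene lies inside a larger gene on the opposite strand. Nbea, which encodes the trafficking protein neurobeachin and holds Mab21l1, was at 203, 223 and 201 CPM in PG9VN, at 232, 200 and 251 CPM in PG9V and at 249, 237 and 285 CPM in WT. Lrba, a relative of neurobeachin that holds Mab21l2, was at 43.3, 30.1 and 41.3 CPM in PG9VN, at 38.1, 37.6 and 46.0 CPM in PG9V and at 45.2, 62.8 and 43.7 CPM in WT. Neither host gene passed the test in PG9VN against WT (edgeR adjusted p = 0.0944 for Nbea and 0.150 for Lrba), and their log2 fold changes of -0.30 ± 0.11 and -0.40 ± 0.18 were smaller than those of the genes they hold.

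**Figure D2:**
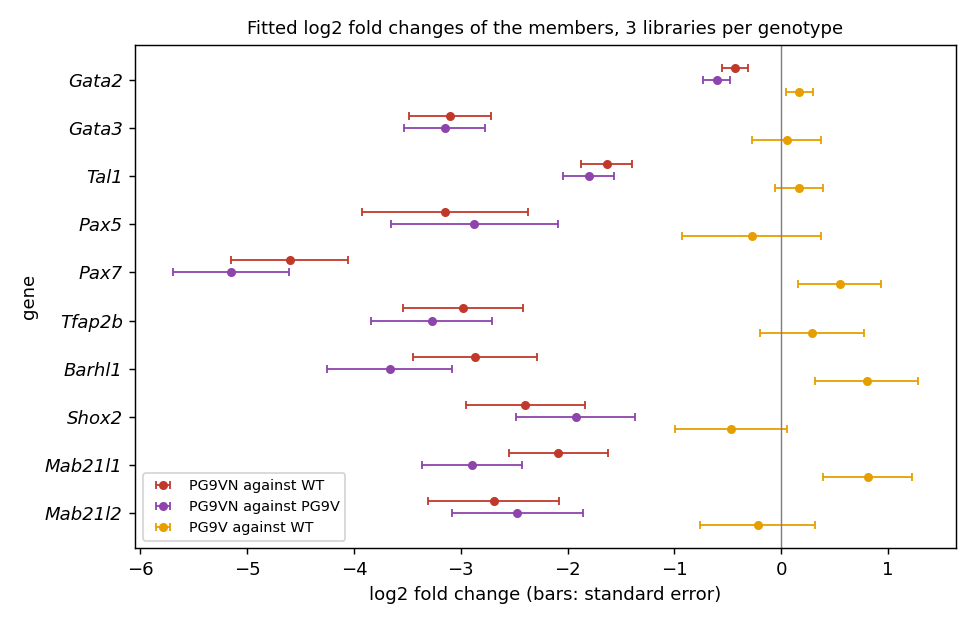
Log2 fold change of each member with its standard error (edgeR fit over 9 libraries) for PG9VN against WT, PG9V against WT and PG9VN against PG9V, with a line at 0. The contrasts with PG9VN lie between -5.15 and -0.43, and those of PG9V against WT between -0.47 and 0.81.

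PG9V and WT were the one pair of genotypes that does not include PG9VN, although its WT libraries took part in choosing the set. The fit itself used all 9 libraries, so the PG9VN libraries shared in its estimate of the spread. By edgeR's quasi-likelihood test 0 of 10 members were called lower and 0 higher in PG9V than in WT, against 0.149% and 1.62% of all genes. The count at an unadjusted p under 0.05 was also 0, as were the counts by DESeq2, by limma-voom and in an edgeR fit of those 2 genotypes alone. Log2 fold changes ran from -0.47 ± 0.52 (Shox2) to 0.81 ± 0.42 (Mab21l1), with 3 negative, 7 positive and a median of 0.17, where the median of all genes was 0.01. Adjusted p-values ran from 0.435 (Mab21l1) to 0.969 (Gata3), which does not show that the levels were equal, since the standard errors of 9 members were 0.23 or more.

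Single members still had some spacing between PG9V and WT. Mab21l1 averaged 10.4 ± 0.501 CPM in PG9V and 5.91 ± 2.52 CPM in WT (SD, n = 3 each), with every PG9V library above every WT library, which held for 16.5% of all genes. Barhl1, at 0.80 ± 0.48 on the log2 scale, and Pax7, at 0.55 ± 0.39, overlapped between the genotypes. For these 2 genes the lowest library of all 6 was WT replicate 2.

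Against PG9V, PG9VN had 7 of 10 members called lower, where 0.667% of all genes were called lower. The members not called were Pax5, Shox2 and Mab21l2, and all 10 passed an unadjusted p under 0.05, with 10 called by DESeq2 and 8 by limma-voom. The PG9VN libraries are those that chose the genes, so these counts are a description and not independent support. Libraries did not overlap for 10 of 10, against 8.93% of all genes with PG9VN below PG9V. The count was 1 when PG9V replicate 1 was left out, 2 when PG9V replicate 3 was and 4 when PG9VN replicate 3 was, and the number of all genes called lower ran from 2 to 374 as single libraries were left out, against 116 with all.

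Levels between genes were compared per kilobase of transcript, on the scale of CPM per kb. Shox2 was the highest in each genotype, at 2.51 in PG9VN, 9.50 in PG9V and 13.2 in WT. Gata2 came next in PG9VN (1.99) and in WT (2.69), and after Mab21l1 (4.16) in PG9V (3.03). Pax5 and Pax7 were the lowest in each genotype, at 0.0517 and 0.0229 in PG9VN, 0.383 and 0.842 in PG9V, and 0.461 and 0.575 in WT. In WT each of the neighbours from Gata2 down to Pax5 differed by less than the larger of their SDs, so that only the place of Shox2 stood clear of the spread.

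**Figure D3:**
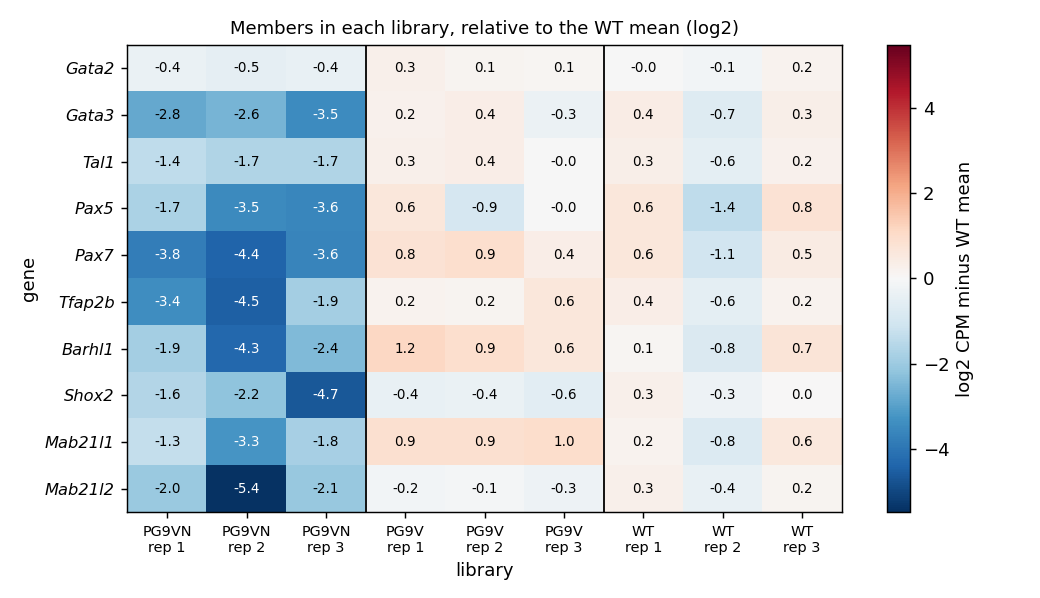
Log2 CPM of each member in each library relative to its WT mean (colour scale in log2 units), with PG9VN libraries first, then PG9V and WT. All PG9VN cells are below 0, and WT replicate 2 is below 0 for all 10 genes.

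The question of whether the genes shift as one was described library by library, as the difference in log2 CPM of each member from its WT mean. In PG9VN replicate 1 the values ran from -3.82 for Pax7 to -0.37 for Gata2, with a median of -1.82. In PG9VN replicate 2 the median was -3.38, with Mab21l2 lowest at -5.44, and in PG9VN replicate 3 it was -2.24, with Shox2 lowest at -4.67. All 10 were below the WT mean in all 3 PG9VN libraries, but by unequal amounts and with a different gene lowest in each library. The medians were 0.28, 0.25 and 0.04 in PG9V and 0.29, -0.63 and 0.27 in WT, while the medians over all genes ran from -0.014 to 0.024.

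Within WT all members shared their lowest library but not their highest, and within each mutant line neither place was shared by all. WT replicate 2 was the lowest WT library for 10 of 10 members, as it was for 42.7% of all tested genes. The highest was WT replicate 1 for 6 and WT replicate 3 for 4, against 31.8% and 33.5% of all genes. PG9V replicate 3 was the lowest PG9V library for 7, against 36.4% of all genes. PG9VN replicate 1 was the lowest of its genotype for 0 and the highest for 7, against 29.6% and 29.2% of all genes. The lowest was PG9VN replicate 2 for 6, against 42.9% of all genes, and PG9VN replicate 3 for 4 (Gata3, Tal1, Pax5 and Shox2), against 27.5%. These PG9VN counts of 6 and 4 lay near the shares of all genes. Gata3 differed from the other members in being highest in PG9VN replicate 2. The ratio of the highest to the lowest library was 1.09 for Gata2 and 28.3 for Mab21l2 within PG9VN, and 1.24 for Gata2 and 4.86 for Pax5 within WT.

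Beside the members, 25 of 26 other midbrain transcription factors were high enough to test, and 6 were called lower and 0 higher in PG9VN than in WT, against 7.22% and 11.5% of all genes. Their median log2 fold change was -1.22, where the median of all genes was 0.017. The 6 were Pou4f2, Tfap2d, Pax3, Pitx3, Dmbx1 and Lhx9. Pou4f2, a POU factor also known from retinal ganglion cells, had 0, 0 and 3 counts in PG9VN and means of 2.69 CPM in PG9V and 1.72 CPM in WT. Tfap2d, the AP-2 relative of Tfap2b, averaged 0.273 ± 0.101 CPM in PG9VN, 2.84 ± 0.988 CPM in PG9V and 1.56 ± 0.743 CPM in WT (SD, n = 3 each), with a log2 fold change of -2.50 against WT (edgeR adjusted p = 0.00725). Lhx9, a LIM homeobox factor, averaged 9.07 ± 4.11, 22.9 ± 1.88 and 22.4 ± 9.58 CPM in PG9VN, PG9V and WT, with overlapping PG9VN and WT libraries. The more abundant Meis2 had 141, 48.5 and 176 CPM in PG9VN, 81.4, 121 and 103 CPM in PG9V and 87.2, 237 and 79.9 CPM in WT, with no order by genotype. The count was 12 when PG9VN replicate 1 was left out, 3 when WT replicate 1 was and 2 when WT replicate 3 was. In PG9V against WT 0 were called by edgeR, with 1 at an unadjusted p under 0.05, and in PG9VN against PG9V 4 were, which became 0 when PG9V replicate 1 or 3 was left out, 1 for PG9VN replicate 3, 2 for PG9V replicate 2 and 8 for PG9VN replicate 1.

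A further list held relatives and binding partners of the GATA and TAL1 factors, together with Helt and Sox14, which are other factors of midbrain GABA neurons. Of 14 tested, 4 were called higher in PG9VN than in WT and 1 lower, against 11.5% and 7.22% of all genes. Lyl1, the closest relative of Tal1, averaged 8.64 ± 1.88 CPM in PG9VN, 4.40 ± 0.572 CPM in PG9V and 2.05 ± 0.263 CPM in WT, a log2 fold change of 2.07 ± 0.20 against WT (edgeR adjusted p = 0.000200). Lmo2, the bridging partner in GATA and TAL1 complexes, averaged 36.4 ± 2.25, 25.01 ± 3.06 and 18.6 ± 2.89 CPM in PG9VN, PG9V and WT. Both genes are also known from blood and vessel cells. The others higher were Ldb1 and Tcf3, by 0.40 ± 0.09 and 0.35 ± 0.08 on the log2 scale, and the count of 4 was 2 without WT replicate 1. The 1 called lower was Sox14, which is neither a relative nor a listed partner, at 0.216, 0.258 and 0.383 CPM in PG9VN, 3.76, 2.52 and 2.20 CPM in PG9V and 2.81, 1.59 and 3.15 CPM in WT.

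Genes of transmitter use differed in part. Of 10 tested 3 were called lower in PG9VN than in WT, against 7.22% of all genes. The 3 were the glycine transporters Slc6a5 and Slc6a9 and the vesicular glutamate transporter Slc17a6. Slc6a5 averaged 0.262 ± 0.0681 CPM in PG9VN, 2.83 ± 1.59 CPM in PG9V and 2.54 ± 1.23 CPM in WT, a log2 fold change of -3.26 ± 0.63 (edgeR adjusted p = 0.00798). Slc17a6 was at 102, 23.0 and 41.8 CPM in PG9VN, at 133, 145 and 124 CPM in PG9V and at 182, 123 and 189 CPM in WT, so that PG9VN replicate 1 was closest to the other genotypes. Of the glycine receptor genes 3 of 5 were called lower (Glra1, Glrb and the scaffold gene Gphn), against the same 7.22% of all genes. Their count was 1 without PG9VN replicate 3, PG9V replicate 1 or any 1 WT library. The transmitter count was 1 without WT replicate 1 or 3. Gad1, which makes GABA, was not called, at means of 325, 388 and 524 CPM in PG9VN, PG9V and WT.

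Region markers are given beside the members because the share of each region in a dissected piece can differ between mice. Of 12 thalamus markers 9 were called lower in PG9VN than in WT, against 7.22% of all genes, with a median log2 fold change of -1.43. Their summed levels were 383 to 525 CPM in PG9VN, 736 to 818 CPM in PG9V and 1111 to 1294 CPM in WT. Dopamine neuron genes had 0 of 8 called by edgeR, with 2 at an unadjusted p under 0.05, 2 called by DESeq2 and 4 by limma-voom, or 4 by edgeR without PG9VN replicate 1. Their mean log2 difference from WT was -0.21, -3.20 and -1.87 in PG9VN replicates 1 to 3, where that of the members was -2.04, -3.23 and -2.56. The dopamine transporter Slc6a3 was at 35.2, 0.111 and 1.53 CPM in PG9VN, at 52.4, 27.6 and 37.9 CPM in PG9V and at 47.3, 39.3 and 34.5 CPM in WT. In PG9VN replicate 1 the dopamine neuron genes were uneven, with Slc6a3 inside the WT range but Ret, a growth factor receptor gene, at 29.3 CPM against 44.7 to 55.9 CPM in WT, and Aldh1a1, a retinaldehyde dehydrogenase gene, at 75.7 CPM against 83.2 to 124 CPM in WT.

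Other regions followed other patterns across the same libraries. Hypothalamic transcription factors stood at 0.42, -3.54 and 0.80 in PG9VN replicates 1 to 3, hypothalamic peptides at 0.75, -3.27 and 1.02, and striatum markers at 1.20, -1.69 and 1.22. Cortex and hippocampus markers stood at -0.79, 1.44 and -0.71, in the opposite direction. PG9VN replicate 2 was the library apart in these 4 lists. Habenula markers stood at 0.17, -1.96 and -1.51. Of these 6 markers 0 were called by edgeR in PG9VN against WT, or 3 lower without PG9VN replicate 1. The members were selected on PG9VN against WT, so their low values in all 3 PG9VN libraries are a description and not independent support. Other lists with all 3 below the WT mean included the thalamus markers at -1.20, -1.25 and -1.83, the other midbrain transcription factors at -0.67, -2.27 and -1.46, and the serotonin neuron genes at -1.58, -1.85 and -1.86. Cerebellum markers stood at -0.66, -0.95 and -0.43 in PG9VN and at 0.64, -0.30 and 3.29 in PG9V. Of 13 Hox genes, which mark hindbrain and spinal cord, 0 were high enough to test, and their summed level was 0.503 to 1.43 CPM in PG9VN, 0.462 to 0.829 CPM in PG9V and 0.502 to 0.846 CPM in WT, with Hoxa5 and Hoxc5 at 0 in every library. Markers of neurons in general had 7 of 14 called lower in PG9VN than in WT, against 7.22% of all genes, with a median of -0.41. Without PG9VN replicate 2 the count was 12. The part of a shifted dissection in the members' values was not tested, and in 3 mice per genotype it cannot be told apart from the genotype.

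Further lists cover the brainstem and the other cell types that use the same factors. Serotonin neurons had 1 of 6 genes called lower in PG9VN than in WT, the transporter gene Slc6a4, against 7.22% of all genes. The count ran from 0 to 3 as single libraries were left out. Slc6a4 was at 0.0719, 0.0369 and 0.104 CPM in PG9VN and at 0.142, 0.0332 and 3.07 CPM in PG9V. In WT it was at 2.42, 0.677 and 19.4 CPM, so it varied widely within each of PG9V and WT. Of 6 noradrenaline and acetylcholine neuron genes, 3 were high enough to test. Of these, 0 were called lower or higher in PG9VN against WT in any setting tried. Their mean log2 difference from WT was 0.57, -3.28 and -0.05 in PG9VN replicates 1 to 3, unlike the serotonin neuron genes. Erythroid markers, from cells that express Gata and Tal1 genes, had 0 of 6 called by edgeR, while DESeq2 and limma-voom each called 1 higher, as many as passed an unadjusted p under 0.05. Skeletal muscle and satellite cell markers, the other setting of Pax7, had 0 of 3 called by edgeR, while DESeq2 and limma-voom each called 0 and 1 was higher at an unadjusted p under 0.05.

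**Figure D4:**
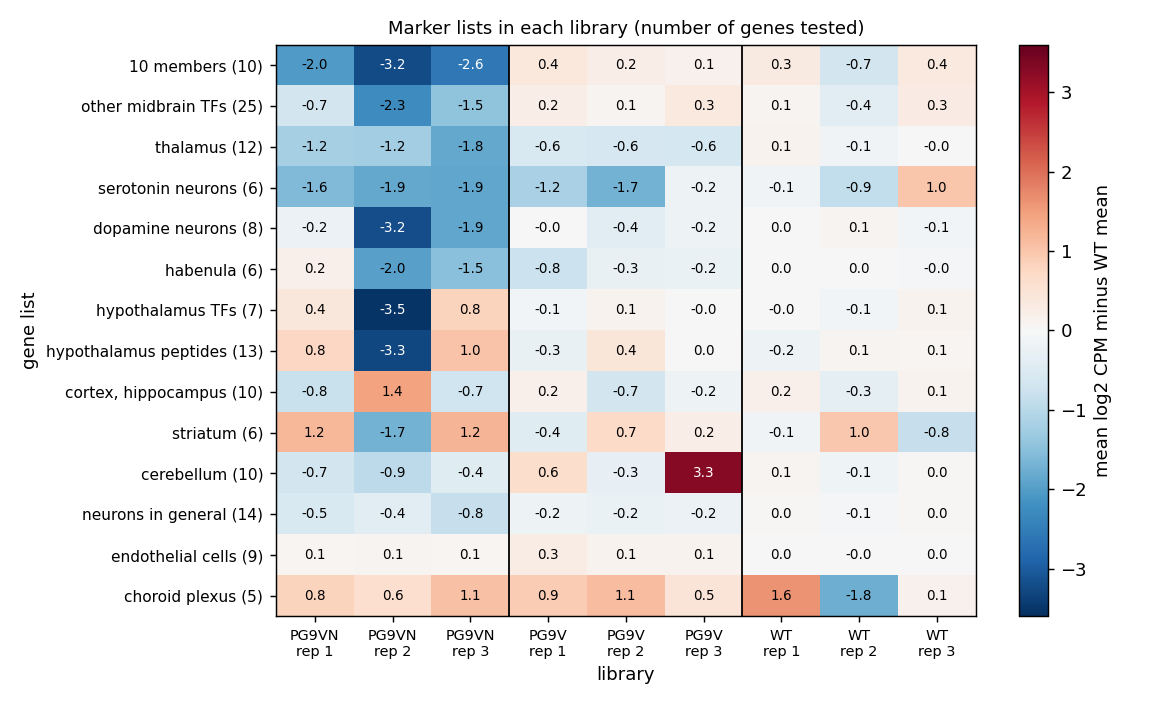
Mean log2 CPM of the members and of each marker list (down the page, with the number of genes tested) minus the WT mean, as a colour and a value for each library of PG9VN, PG9V and WT (across). The 3 PG9VN values of the members lie between -3.23 and -2.04, while for the hypothalamic lists PG9VN replicate 2 alone is low.

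The genes whose profile across the 9 libraries was most like the median of the members were found by the root mean square log2 difference among 14411 genes with at least 1 CPM on average, where the median was 1.527. The closest were Syt2, a calcium sensor of synaptic vesicles, at 0.347, Myoc, a secreted glycoprotein, at 0.405, and Sox14 at 0.494. Slc17a6, the thalamic factor gene Tcf7l2, Ebf3, Klhl1, Gucy2c, Ret and Sgpp2 followed, at 0.525 to 0.624. The members themselves ran from 0.486 (Mab21l1) to 1.257 (Gata2) by the same measure. Syt2 averaged 30.5 ± 11.4 CPM in PG9VN, 124 ± 9.93 CPM in PG9V and 131 ± 32.0 CPM in WT. The 10 genes are a description of these 9 libraries, and 3 of 10 were shared when PG9VN replicate 2 and PG9V replicate 3 were left out.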

How the data were processed

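Poly(A)-selected, stranded RNA-seq was made from 9 brain samples, 3 per genotype, per the labels' protocols. The authors deposited 1 table of estimated counts for 105129 transcripts, and 59.6% of them had a fractional part (tolerance 0.001). Build mm39 and the tools kallisto 0.43.1, HISAT2 2.0.5, Trimmomatic 0.33 and FastQC are listed, without roles, per the submitters' processing notes. Settings, annotation and strand handling are not given in the sources used here. The test was planned on gene counts, so transcripts were summed per gene symbol and rounded. Of 177 transcripts whose symbols had become dates, 173 were resolved by identifier. GENCODE M21 on GRCm38 held 98.6% of the transcripts and gave lengths, chromosomes and overlaps. RefSeq promoters are on GRCm38.p6.

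The 9 libraries held 27150311 to 35349014 counts. They were fitted with edgeR 4.0.16 in R 4.3.3 (quasi-likelihood test with a robust fit, 1 coefficient for each genotype, TMM scaling and the filterByExpr filter), with Benjamini-Hochberg adjustment over 17398 genes at 0.05. The test was also run on simulated data. Log2 CPM profiles used a prior count of 2. Alternatives were DESeq2 1.42.0, limma-voom (limma 3.58.1), other scalings and filters, the top transcript alone, 2-genotype fits and left-out libraries.

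The members and lists were chosen with earlier results of these data known. The text names the 10 members, from each other list up to 4 genes of the highest level and up to 4 called genes of the largest change, the 10 genes most like the members, and Grn and Y-linked genes as checks. Part of the genotype of the mutant lines is not reported here. Replicate numbers follow accession order. The labels call the samples biological replicates but give no litter, sex or batch. The p-values thus set a difference between genotypes against the spread between these samples. Whether litter or batch enters that spread cannot be checked.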

Additional observations from a re-analysis of the deposited data

How the results depend on the processing

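No paired analysis was possible because the replicate numbers were given in accession order and pair nothing. Of 192 alternative values of the members' log2 fold changes, 191 were negative in PG9VN against WT and 192 in PG9VN against PG9V, while in PG9V against WT 57 were negative and 135 positive. The members called lower in PG9VN against WT numbered 10, and 5 to 10 without single libraries, 5 in a fit of those 2 genotypes alone and 3 without WT replicate 1 and PG9V replicate 2 together. Gata3, Tal1 and Pax7 were called in each setting of that comparison. That comparison chose the genes, so its calls and directions are a description and not independent support. In PG9VN against PG9V the count was 7, and 1 to 8 without single libraries and 3 without WT replicate 1 and PG9V replicate 2 together. In PG9V against WT it was 0 in every setting tried. Directions that turned were Gata2 in PG9VN against WT scaled to neuron markers (0.14) and, all in PG9V against WT, Gata3 without PG9V replicate 2 (-0.10) or WT replicate 2 (-0.23), Tal1 without WT replicate 2 (-0.061, and up to 0.32 without WT replicate 1), Pax5 without PG9V replicate 2 (0.046), without WT replicate 3 (0.093, and down to -0.71 without PG9V replicate 1) or without WT replicate 1 and PG9V replicate 2 together (0.24), and Mab21l2 summed with Mab21l1 (0.45). The causes of these turns were not tested. Over all genes, calls of lower in PG9VN against WT ran from 309 to 2014 and of higher from 1023 to 2365, against 1256 and 2002 with all libraries. In PG9V against WT, lower calls ran from 3 to 274 and higher from 74 to 830, against 26 and 281, and in PG9VN against PG9V from 2 to 376 and from 16 to 857, against 116 and 473. At 1 to 5 counts per library, Pax7 in PG9VN, Pax5 in PG9VN replicates 2 and 3, and Barhl1 and Mab21l2 in PG9VN replicate 2 are limited by depth.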
